A study of Mus musculus with 2 samples.

Results

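The complement genes described here are *C1qa*, *C1qb*, *C1qc*, *C3*, *Cfb*, *Cfp*, *C3ar1* and *C5ar1*, 8 genes of the 32285 counted in each library. They were chosen by name as members of the complement system, with earlier results of these data known and no measured value in the rule, and all 8 were detected in both libraries. RNA of single cells was counted in leukocytes of AT3 tumors, which grow from a mouse mammary tumor line and were raised here in the mammary fat pad of female mice of 6 to 12 weeks that received no drug. The first library came from *Pgd* fl/fl mice (labelled WT) and the second from *Pgd* fl/fl LysM-Cre mice (labelled 6PGDKO). They are called control and Cre library below, and both groups carried the floxed allele of *Pgd*, the gene of the pentose phosphate pathway enzyme 6-phosphogluconate dehydrogenase. In LysM-Cre mice the recombinase is knocked into *Lyz2*, which is active in myeloid cells, so the Cre group also carries an altered *Lyz2* allele. Tumors were taken on day 30 and those of 10 mice were pooled for each genotype, which leaves 1 library per genotype, no replicate and no test of any difference between genotypes.

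Complement is a set of blood and tissue proteins that bind to microbes, immune complexes and dying cells and activate one another in a cascade. The classical pathway starts with C1q, a protein assembled from A, B and C chains that *C1qa*, *C1qb* and *C1qc* encode, and all pathways meet at C3, whose cleavage marks targets for uptake and releases the peptide C3a. Factor B and properdin belong to the alternative pathway, and C3a and C5a act through the receptors C3AR1 and C5AR1. Most plasma complement is made in the liver, whereas C1q is made mainly by macrophages and dendritic cells, and *C1q* genes are widely used as markers of tissue and tumor macrophages.

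The 3 C1q genes lie side by side on the minus strand of chromosome 4 in GRCm38.p6, the mm10 assembly, within 18719 bases. *C1qb* occupies chr4:136880126-136886200, *C1qc* chr4:136889801-136892936 and *C1qa* chr4:136895916-136898844. The other members are dispersed, with *C3* at chr17:57203967-57228136, *Cfb* at chr17:34856374-34862514, *C3ar1* at chr6:122847140-122856157, *C5ar1* at chr7:16246743-16259540 and *Cfp* at chrX:20925454-20931555. *C3* and *Cfb* each overlap a microRNA gene, *Mir6978* and *Mir6972*.

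The 250 bases before the annotated RefSeq starts of *C1qb* (chr4:136886201-136886450) and *C1qc* (chr4:136892915-136893164) are printed because both genes belong to the cluster whose RNAs were counted together in the same cells. They are written 5′ to 3′ on the minus strand, the strand of both genes, and capitals mark every match on either strand to GAGGAA, a core bound by PU.1 and other ETS factors, and to TGCTGA, a core of the Maf recognition element.
C1qb: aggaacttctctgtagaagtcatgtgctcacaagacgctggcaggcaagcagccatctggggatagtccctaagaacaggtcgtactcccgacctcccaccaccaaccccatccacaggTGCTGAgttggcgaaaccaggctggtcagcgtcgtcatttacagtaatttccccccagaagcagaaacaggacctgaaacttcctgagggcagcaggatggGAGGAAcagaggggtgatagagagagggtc
C1qc: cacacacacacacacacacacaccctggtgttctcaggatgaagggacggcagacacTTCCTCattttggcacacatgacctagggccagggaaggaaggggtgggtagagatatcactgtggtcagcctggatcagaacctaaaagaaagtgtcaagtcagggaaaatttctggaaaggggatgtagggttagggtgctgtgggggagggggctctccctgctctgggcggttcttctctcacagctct
In *C1qb* GAGGAA lies 30 to 25 bases and TGCTGA 131 to 126 bases before the start. *C1qc* has GAGGAA on the opposite strand, 193 to 188 bases before the start, and no TGCTGA. The start used for the *C1qc* window lies inside the gene span given above, so the window overlaps that span up to chr4:136892936. The ETS core occurs in 23.3% and the Maf core in 16.1% of the 32851 windows of this length in the RefSeq promoter table, so a match to either is common. In the windows of *C3*, *C3ar1* and *C5ar1* TGCTGA was found at 1 position each and in that of *Cfp* neither motif was found. The *C5ar1* window (chr7:16259339-16259588) lies mostly inside the gene span given above, and so does its TGCTGA.

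After filtering, 3565 control and 2798 Cre cells remained, with a median of 5554 and 7926 UMIs (unique molecular identifiers, each standing for 1 captured RNA molecule) per cell, and no cell barcode was shared by the libraries. Cells were grouped into 19 clusters without use of complement genes and named by marker genes, so that macrophage below stands for macrophage-like and likewise for the other types, and clusters 1 and 17 stayed unnamed. Cluster 1, with 493 and 321 cells, scored best on the T cell list and is led by *Ly6c2*, *Cd8b1* and *Cd8a*. It is not counted among T cells below. The submitters describe a sort for CD45+ and elsewhere for live CD11b+ cells, and the libraries held T and B cells as well as 72 and 94 epithelial cells (values are given with control first throughout). Macrophages numbered 732 and 729 and monocytes 129 and 328. *Pgd* was at 104 and 30.2 UMIs per 1000000 UMIs (CPM) in macrophages and at 26.0 and 31.5 CPM in T cells, and *Lyz2* was at 3038 and 25.5 CPM in macrophages. *Pgd* differed in the direction of the labels in macrophages, although the floxed exons are not given in the sources used here and counted fragments need not cover them. The labels do not speak of *Lyz2*, the gene that carries the recombinase, which was 119-fold lower in Cre macrophages.

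All 3 C1q subunit genes had their highest level in macrophages in both libraries. *C1qa*, which encodes the A chain, was at 5290.3 CPM (exact Poisson 95% interval 5243 to 5338) and 4313 CPM (4273 to 4353) in macrophages. *C1qb*, for the B chain, was at 4642 (4597 to 4686) and 4141 CPM (4102 to 4180.1), and *C1qc*, for the C chain, at 3293 (3256 to 3331) and 2670.4 CPM (2639 to 2702). These intervals, like all intervals below, cover counting error only and say nothing of the spread between mice. For each of the 3 genes the macrophage interval of the Cre library lay below that of the control library.

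Below macrophages, *C1qa* ranked in the same order in both libraries, with cluster 17 at 2009.6 and 2607 CPM, monocytes at 1138 and 1332 CPM and Langerhans cells at 452 and 359 CPM. None of these neighbours in the order had overlapping intervals. Cluster 17, with 14 and 52 cells, is led by *Retnla*, *Lyz1*, *Fn1* and *Folr2*, and most of its values rest on few cells in the control library. It scored best on the macrophage list, with 9 markers of that list found. Values given for macrophages leave out cluster 17, so a contrast between the 2 is not one with cells unlike macrophages. For the sum of the 3 genes the levels were 13225 and 11124 CPM in macrophages, 4471 and 5923 CPM in cluster 17, 2977 and 3410.1 CPM in monocytes and 842 and 609 CPM in Langerhans cells. In Langerhans cells 5 cells held 48.0% and 24.2% of these UMIs, and without them the levels were 470.5 and 482 CPM.

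T cells, which are not known to make C1q, gave a measure of the background from free RNA and mixed droplets. Their C1q sum was 153 and 252 CPM, and that of cluster 1 was 85.2 and 111 CPM. A *C1qa* UMI was held by 16.7% and 21.0% of T cells at median depths of 4570 and 4847 UMIs. In macrophages, with median depths of 12018 and 13313 UMIs, the share was 98.9% and 97.4%. Thinned to 2000 UMIs per cell, the shares were 8.28% and 12.2% in T cells against 98.6% and 95.7% in macrophages, 38.6% and 42.4% in monocytes and 33.3% and 28.3% in Langerhans cells. For *C1qa*, macrophages, monocytes and Langerhans cells therefore lay above the T cell share in both libraries, also at equal depth. For *C1qc*, thinned likewise, Langerhans cells were at 9.80% (4.80 to 17.3) and 8.97% (4.86 to 14.8). T cells were at 3.97% (2.92 to 5.26) and 6.74% (5.01 to 8.84), so these intervals overlapped in both libraries. The *C1qb* intervals of these cell types overlapped in the control library only. Epithelial cells had a C1q sum of 645 and 464 CPM, above that of T cells, but 5 cells held 94.4% and 87.3% of these UMIs. Type 1 conventional dendritic cells had a C1q sum of 79.9 and 429 CPM, but 5 cells held 74.5% and 85.2% of these UMIs, so their level is carried by few cells.

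**Figure D1:**
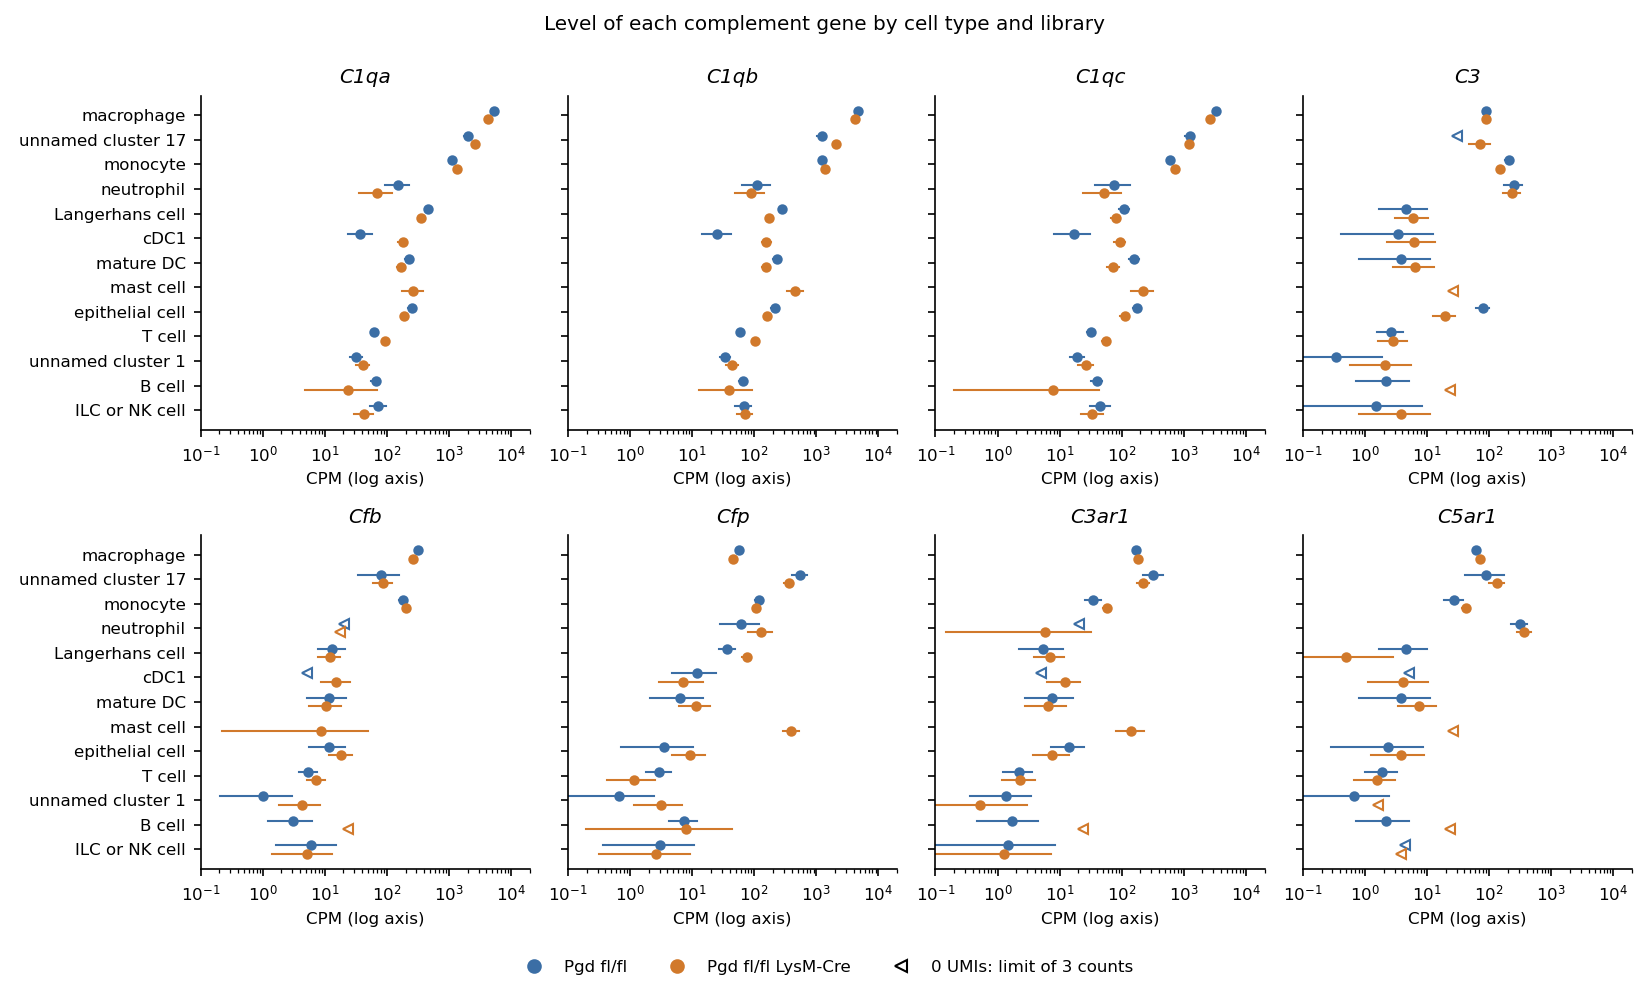
Level of each complement gene by cell type. The x axis gives CPM on a log scale, points are the control and Cre libraries and bars are exact Poisson 95% intervals. *C1qa*, *C1qb* and *C1qc* are highest in macrophages, *C3* and *C5ar1* in neutrophils, *Cfb* in macrophages, and *Cfp* in cluster 17 and, in the Cre library, mast cells.

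The subunits were found together in single cells. A UMI of all 3 genes was present in 97.1% (exact Clopper-Pearson 95% interval 95.6 to 98.2) and 94.4% (92.4 to 95.9) of macrophages. In monocytes all 3 were found in 42.6% and 44.2% of cells and none of them in 36.4% and 39.0%. Monocytes were therefore divided in both libraries, with a median of 1 *C1qa* UMI per cell and maxima of 116 and 267, whereas the median macrophage held 58 and 55 *C1qa* UMIs. In T cells all 3 subunits were found in 2.89% and 6.63%.

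**Figure D2:**
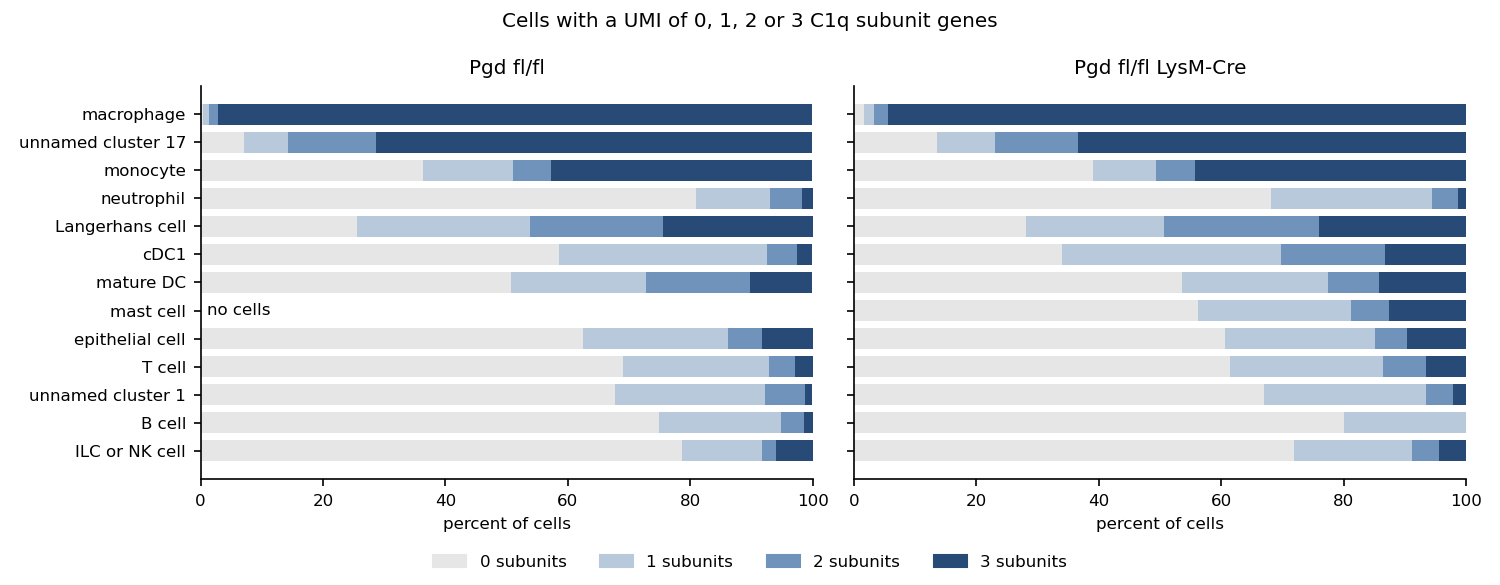
C1q subunits in single cells. The share of cells, in percent, that held UMIs of 0, 1, 2 or all 3 of *C1qa*, *C1qb* and *C1qc* is shown for cell types of each library. All 3 were present in 97.1% and 94.4% of macrophages and in 2.89% and 6.63% of T cells.

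The ratio of *C1qa* to *C1qb* UMIs compares both genes within the same cells and does not depend on the scaling of the libraries. How well each RNA is captured is not known, so the ratio is compared between cells and not read as subunit stoichiometry. In macrophages it was 1.14 (exact conditional 95% interval 1.12 to 1.15) in the control and 1.04 (1.03 to 1.06) in the Cre library. The *C1qc* to *C1qb* ratio was likewise 0.710 (0.699 to 0.720) and 0.645 (0.635 to 0.655), so relative to *C1qb* both *C1qa* and *C1qc* were lower in Cre macrophages. In monocytes the *C1qa* to *C1qb* ratio was 0.920 (0.858 to 0.987) and 0.974 (0.937 to 1.01), without separate intervals. Langerhans cells had higher ratios of *C1qa* to *C1qb* than macrophages, at 1.61 (1.41 to 1.84) and 2.10 (1.84 to 2.40), and T cells were at 1.03 (0.900 to 1.19) and 0.905 (0.799 to 1.03). Without the 5 Langerhans cells of each library that held most C1q UMIs the ratio there was 2.32 (1.91 to 2.81) and 2.04 (1.76 to 2.37). With or without them the Langerhans cell ratio differed from that of T cells of the same library beyond counting error. In macrophages without T or B cell UMIs the *C1qa* to *C1qb* ratio was 1.14 (1.12 to 1.15) and 1.03 (1.01 to 1.04).

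**Figure D3:**
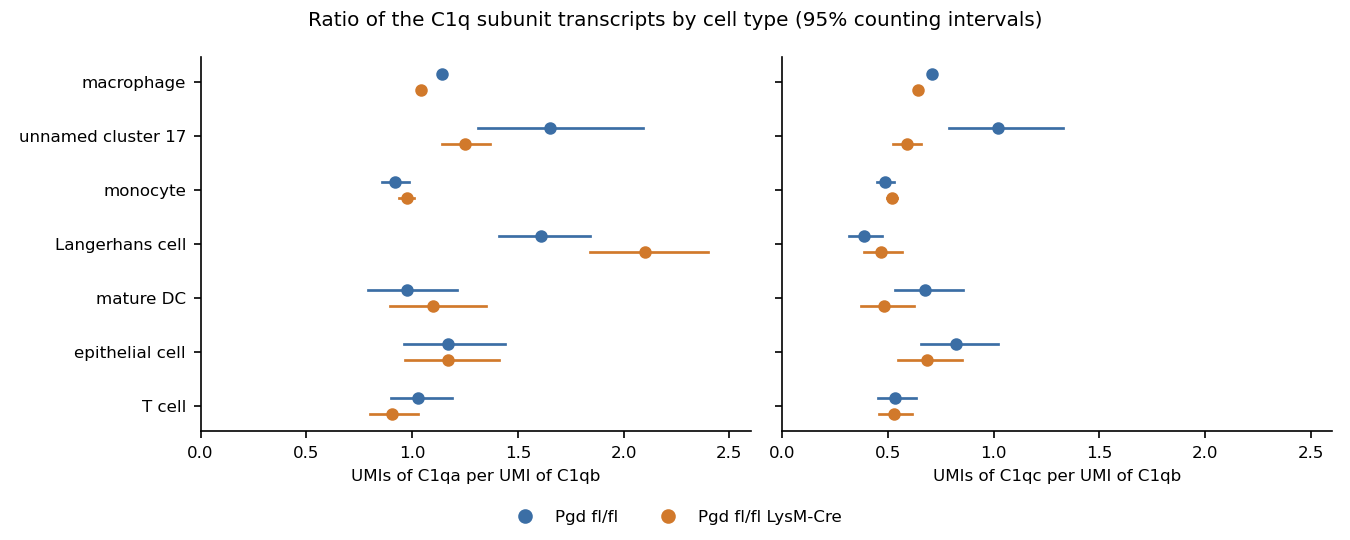
Ratio of *C1qa* to *C1qb* and of *C1qc* to *C1qb* UMIs by cell type. Points are the 2 libraries and bars are exact 95% intervals of the ratio. In macrophages the *C1qa* to *C1qb* ratio is 1.14 and 1.04, and in Langerhans cells it is 1.61 and 2.10.

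*C3*, the central component of the cascade, was not highest in macrophages. Neutrophils had 247 (173 to 342) and 232 CPM (166 to 316), monocytes 207 (183 to 233) and 149.8 CPM (138 to 162), and macrophages 90.1 (84.1 to 96.5) and 90.1 CPM (84.4 to 96.1). The neutrophil and monocyte intervals overlapped in the control library and not in the Cre library, and macrophages lay below both types in each library. A *C3* UMI was found in 37.7% and 41.4% of macrophages and in 50.4% and 51.8% of monocytes, against 0.908% and 1.59% of T cells. Epithelial cells were at 78.4 and 19.2 CPM, but 94.0% of the *C3* UMIs of epithelial cells in the control library came from 5 cells. In cluster 17 no *C3* UMI was seen in the control library, where 3 UMIs would be 30.1 CPM, and the level was 71.9 CPM in the Cre library.

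*Cfb* encodes factor B, the protease subunit of the alternative pathway convertase. It was highest in macrophages at 323 (311 to 335) and 268 CPM (258 to 278), followed by monocytes at 179 (157 to 203) and 204 CPM (190.4 to 219) and cluster 17 at 80.4 and 86.7 CPM. Unlike *C3*, *Cfb* had no UMI in neutrophils of either library, where 3 UMIs would be 20.6 and 17.4 CPM. A *Cfb* UMI was present in 78.1% and 75.0% of macrophages and in 2.23% and 3.58% of T cells.

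*Cfp* encodes properdin, which stabilises the alternative pathway convertase. It was highest in cluster 17 of the control library, at 543 CPM (408 to 708), and in the Cre library cluster 17 had 362 CPM (306 to 426) and the 16 mast cells, all of that library, 395 CPM, with overlapping intervals. Monocytes had 119 (101 to 139) and 107 CPM (97.0 to 118) and macrophages 57.0 (52.2 to 62.1) and 46.0 CPM (42.0 to 50.3), so that *Cfp* was higher in monocytes than in macrophages in both libraries. Neutrophils were at 61.8 (28.3 to 117) and 128 CPM (80.0 to 193), with overlapping intervals. In Langerhans cells *Cfp* was at 36.4 (26.7 to 48.4) and 75.6 CPM (64.0 to 88.7), a log2 ratio of 1.05 (0.57 to 1.56). The share of Langerhans cells with a *Cfp* UMI was 31.4% and 46.6%, and 4.90% and 12.4% after thinning to 2000 UMIs.

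The receptor genes had separate patterns. *C3ar1*, for the C3a receptor, was highest in cluster 17 at 322 (219.9 to 454) and 221 CPM (177 to 271) and in macrophages at 171 (163 to 180.0) and 181 CPM (173 to 189), with overlap of these intervals in the Cre library. Monocytes had 35.1 (25.8 to 46.7) and 58.1 CPM (50.8 to 66.2), and neutrophils 0 and 5.80 CPM. *C5ar1*, for the C5a receptor through which neutrophils and other myeloid cells are attracted, was highest in neutrophils at 309 (225 to 413) and 371 CPM (286 to 474). It followed in cluster 17 at 90.4 and 134 CPM, in macrophages at 61.3 (56.3 to 66.6) and 71.0 CPM (66.0 to 76.3) and in monocytes at 26.9 (18.9 to 37.3) and 42.3 CPM (36.1 to 49.2). T cells were at 2.20 and 2.31 CPM for *C3ar1* and at 1.91 and 1.54 CPM for *C5ar1*.

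Macrophages were 20.5% and 26.1% of cells and gave 33.8% and 36.4% of all gene UMIs, which is the base for the share of each gene that they held. They held 93.4% and 85.1% of the C1q sum, 92.4% and 82.7% of *C3ar1*, 89.8% and 74.3% of *Cfb*, 82.2% and 70.4% of *C5ar1*, 66.4% and 56.2% of *C3* and 61.5% and 36.5% of *Cfp* UMIs. The macrophage share was lower in the Cre library for each of the 8 genes. Monocytes were 3.62% and 11.7% of cells and gave 4.96% and 13.7% of all gene UMIs. They held 2.95% and 9.82% of *C1qa*, 7.30% and 21.4% of *Cfb*, 22.4% and 35.2% of *C3* and 18.8% and 32.0% of *Cfp* UMIs. Whether the shift between these cell types reflects the genotype or the mice and dissociation of a single pool cannot be told apart with 1 library each.

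**Figure D4:**
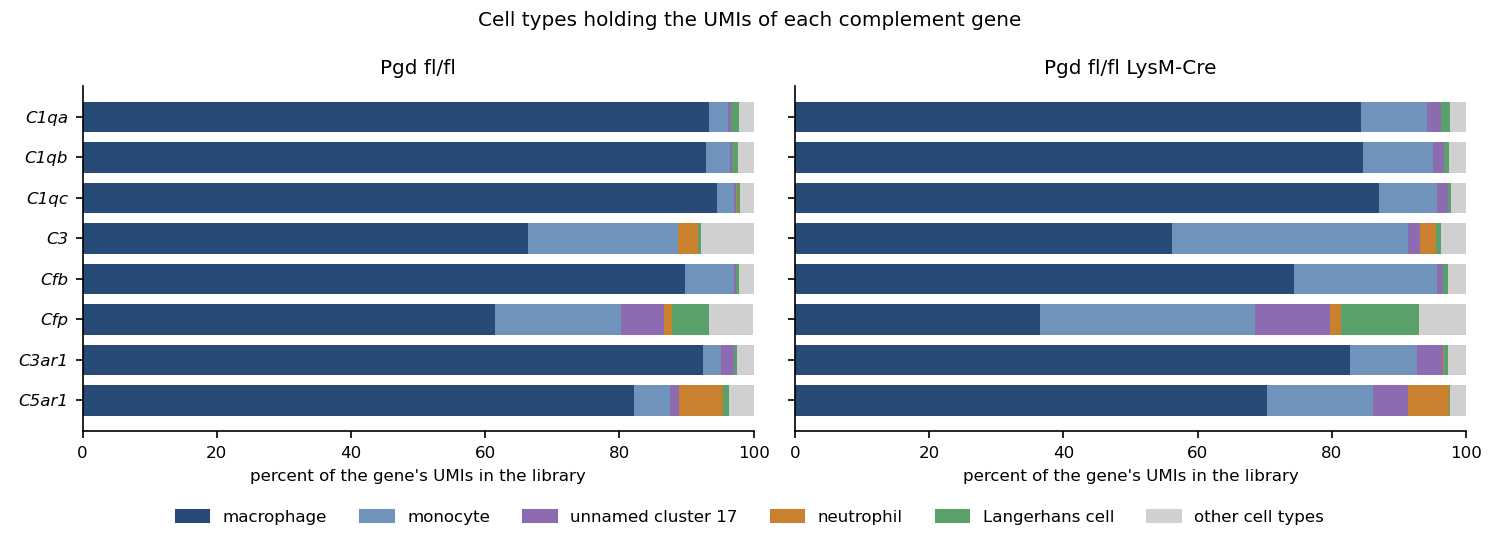
Where the UMIs of each complement gene were found. Stacked bars give the percent of a gene's UMIs held by each cell type, with the control and the Cre library side by side. Macrophages hold 93.3% and 84.4% of *C1qa* UMIs and 61.5% and 36.5% of *Cfp* UMIs.

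The comparison of genotypes asked how complement RNA in myeloid cells differed when Cre was active in them. A gene was counted as higher or lower where its CPM differed 1.5-fold or more with at least 20 UMIs over both libraries. In macrophages none of the 8 members reached this fold in either direction, where 7.12% of the 11812 genes with enough UMIs were higher and 4.43% lower. The median log2 ratio, with the Cre library over the control library, was −0.22 over the members and 0.06 over all genes. In monocytes 2 of 8 were higher, *C3ar1* and *C5ar1*, against 11.9% of 9347 genes, and 0 of 8 were lower against 6.28%, with medians of 0.21 and 0.04.

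The C1q genes were lower in Cre macrophages and higher in Cre monocytes, all by less than 1.5-fold. In macrophages the log2 ratio was −0.29 (exact 95% interval −0.31 to −0.28) for *C1qa*, −0.16 (−0.18 to −0.15) for *C1qb* and −0.30 (−0.33 to −0.28) for *C1qc*. In monocytes it was 0.23 (0.14 to 0.31), 0.15 (0.07 to 0.23) and 0.24 (0.13 to 0.35) in the same order. For the C1q sum the ratios were −0.25 (−0.26 to −0.24) in macrophages and 0.20 (0.14 to 0.25) in monocytes. UMIs of 6 T and B cell genes (*Cd3d*, *Cd3e*, *Cd3g*, *Cd79a*, *Cd79b* and *Ms4a1*) also differed between the libraries, none of the 6 being at 0 in macrophages of either. At least 1 of them was found in 35.1% and 45.1% of macrophages at a summed level of 338 and 486 CPM, and in 35.7% and 39.6% of monocytes at 252 and 457 CPM. The T cell genes were higher in Cre macrophages, such as *Cd3g* at 148 and 234 CPM, and the B cell genes lower, such as *Cd79a* at 15.7 and 8.97 CPM, and the same directions held in monocytes. With those cells left out the C1q sum ratio was −0.13 in macrophages and 0.31 in monocytes. In T cells the C1q sum was also higher in the Cre library, at a log2 ratio of 0.72 (0.61 to 0.84), and in cluster 1 at 0.38 (0.11 to 0.65). It was lower in neutrophils, at −0.69 (−1.35 to −0.04), and in B cells, at −1.28 (−2.42 to −0.34) with 9 UMIs in the Cre library. In ILC or NK cells it was −0.33 (−0.71 to 0.05). The part of free RNA in the monocyte values was not tested.

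Among the other components, *C3* in macrophages was equal in both libraries, with a log2 ratio of 0.00 (−0.14 to 0.14), and in monocytes it was −0.47 (−0.68 to −0.26). Leaving out monocytes with T or B cell UMIs gave −0.16 for *C3*, and leaving out the 5 cells with most *C3* UMIs gave −0.14. Those 5 cells held 35.4% of the control and 16.8% of the Cre *C3* UMIs of monocytes. Fewer monocytes were in the control library, so the −0.14 cannot test the ratio. *Cfb* had ratios of −0.27 (−0.35 to −0.20) in macrophages and 0.19 (−0.02 to 0.41) in monocytes, and *Cfp* of −0.31 (−0.49 to −0.13) and −0.15 (−0.42 to 0.12). For the receptors the macrophage ratios were 0.08 (−0.02 to 0.18) for *C3ar1* and 0.21 (0.05 to 0.37) for *C5ar1*.

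The receptor genes that passed the fold in monocytes rest on few molecules. *C3ar1* had 47 UMIs in 129 control monocytes and 227 UMIs in 328 Cre monocytes, a log2 ratio of 0.73 (0.27 to 1.21), and was found in 16.3% and 32.9% of these cells. *C5ar1* had 36 and 165 UMIs, a log2 ratio of 0.65 (0.12 to 1.21), and was found in 18.6% and 24.1%. The 5 highest cells held 48.9% and 18.1% of the *C3ar1* and 44.4% and 16.4% of the *C5ar1* UMIs, and without them the ratios were 1.37 and 1.21. Because 5 cells are a larger part of 129 than of 328 monocytes, leaving them out lowers the control level more. These 2 values therefore cannot test the ratios. With complement genes kept in the clustering the ratios were 0.92 and 0.83. With cells that held T or B cell UMIs left out they were 0.67 and 0.33, so *C5ar1* then fell short of 1.5-fold. With finer clusters, at a resolution of 1.6, they were 0.10 and −0.09, and neither gene was then past the fold. With subclusters given equal weight in both libraries the ratios were 0.47 and 0.53, also short of it, and 0.61 and 0.59 when a different random start placed 10 of the 1918 cells elsewhere.

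**Figure D5:**
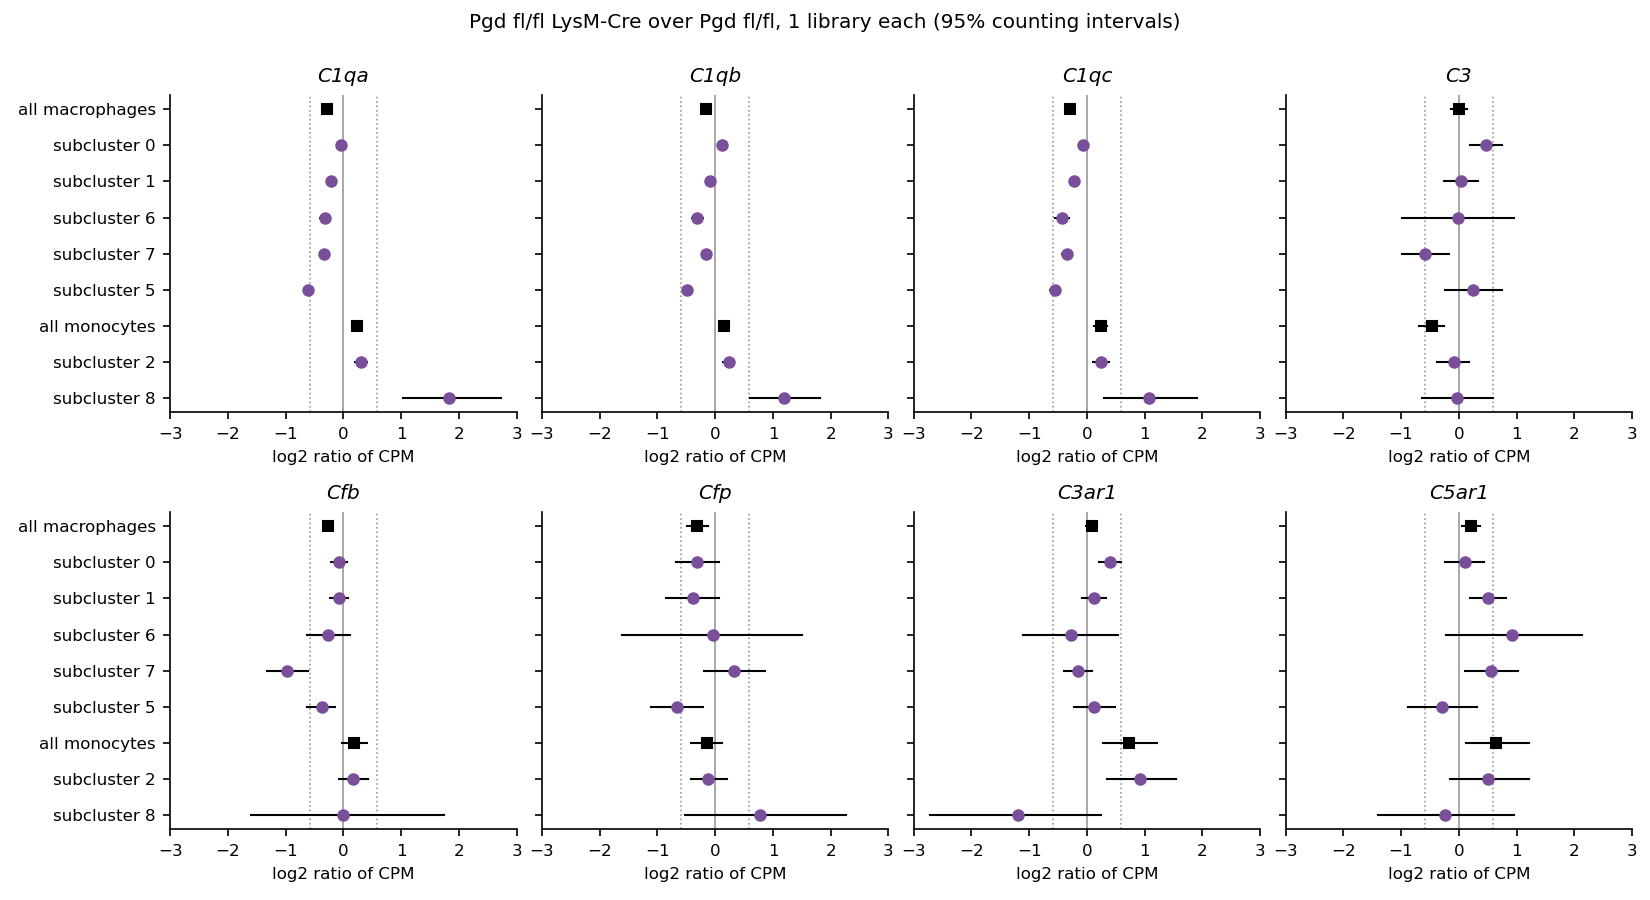
Log2 ratio of each complement gene between genotypes. The x axis gives the log2 ratio of CPM, Cre over control, in macrophages and monocytes, with exact 95% intervals and lines at 1.5-fold. The C1q genes lie below 0 in macrophages and above 0 in monocytes, and *C3ar1* and *C5ar1* in monocytes pass 1.5-fold higher.

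Macrophages and monocytes were divided further into 12 subclusters, again without complement genes, and the C1q sum differed more between subclusters than between genotypes. It was highest in subcluster 6, led by *Ccl8*, *Apoe* and *Hebp1*, at 23608 and 18628 CPM in cells with a median of only 3868 UMIs. Subcluster 0, led by *Hes1* and the heat shock genes *Hsph1* and *Hspa1a*, had 15655 and 15742 CPM, and subcluster 1, led by *Cxcl2*, *Tgfb3* and *Vcam1*, had 14835 and 13210.4 CPM. Cycling cells of subcluster 5, led by *Top2a* and *Birc5*, had 10316 and 7026 CPM. Cells led by *Ly6i*, *Plac8* and *Ly6c2* (subcluster 2) were at 3308 and 3958 CPM, and cells led by *Ace* and *Adgre4*, genes of non-classical monocytes, at 359 and 908 CPM (subcluster 8). In subcluster 8 a C1q UMI was found in 42.3% and 25.5% of cells and 5 cells held 87.3% and 97.0% of these UMIs, so its level rests on few cells, and without them 8 UMIs were left in each library.

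Between genotypes the C1q sum differed least in subcluster 0, with a log2 ratio of 0.01 (−0.01 to 0.03), and most among macrophage subclusters in the cycling subcluster 5, with −0.55 (−0.59 to −0.52). There the share of cells with all 3 subunits was 91.0% and 77.8%, and the *C1qa* ratio was −0.61 (−0.66 to −0.55). Of its 67 and 81 cells 41.8% and 58.0% held a T or B cell UMI, and without these the C1q sum ratio was −0.28 (−0.33 to −0.23). By its marker scores subcluster 5 was nearest to the Langerhans cell list, although 146 of its cells were of the macrophage class. Subclusters 1, 6 and 7 had C1q sum ratios of −0.17, −0.34 and −0.28. The *C1qa* to *C1qb* ratio was lower in the Cre library in subclusters 0 (1.13 and 1.01), 1 (1.15 and 1.06), 5 (1.15 and 1.06) and 7 (1.11 and 0.983). It was also lower in subcluster 3 (1.16 and 1.06), whose leading genes *Cd8a* and *Nkg7* are of lymphocytes and in which 96.0% of cells held a T or B cell UMI. In subcluster 6 it was 1.08 and 1.07, so there *C1qa* did not part from *C1qb* while the C1q sum did differ, and in subcluster 0 the reverse was seen. In subcluster 0 *C1qb* was higher in the Cre library, at a log2 ratio of 0.11 (0.08 to 0.15). *C1qa* was at −0.04 (−0.08 to −0.01) and *C1qc* at −0.07 (−0.11 to −0.02) there. Subclusters 3, 4, 9 and 11, led by lymphocyte genes, held 21.2% and 30.9% of macrophages and 17.1% and 25.9% of monocytes.

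The other members had their own subclusters. *C3ar1* was highest in subcluster 7, led by *Gpnmb*, *Arg1* and *Mmp12*, at 399 and 358 CPM. *Cfb* was highest in subcluster 6, at 567 and 475 CPM. In subcluster 7 *Cfb* was at 270.5 and 138 CPM, a log2 ratio of −0.97 (−1.32 to −0.62). The share of all genes past 1.5-fold was counted in whole macrophages and monocytes and not within subclusters. The subcluster ratios are therefore given as values and not counted as higher or lower. *C3* in subcluster 7 was at 165 and 111 CPM, a log2 ratio of −0.58 (−0.99 to −0.17), and in subcluster 8 at 216 and 212 CPM. In subcluster 0 *C3* differed in the other direction, at 80.9 and 112 CPM, a log2 ratio of 0.47 (0.19 to 0.75). In subcluster 2, which held most monocytes, the log2 ratio of *C3ar1* was 0.92 (0.35 to 1.55). *C5ar1* had ratios of 0.51 (0.20 to 0.82) in subcluster 1 and 0.84 (0.38 to 1.32) in subcluster 3. In subcluster 3, led by lymphocyte genes, 96.0% of cells held a T or B cell UMI.

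A wider list of 44 complement genes, fixed by name, was described in the same way. In macrophages 18 of them had no UMI in either library, among them the terminal pathway genes *Hc* (which encodes C5), *C7*, *C8a*, *C8b* and *C9*, *Cfd* for factor D and *Serping1* for the C1 inhibitor. Of the 15 with at least 20 UMIs, 2 were higher in the Cre library beside 7.12% of all genes. *Lrp1*, an endocytic receptor that together with calreticulin takes up C1q-bound targets, was at 77.6 and 121 CPM with a log2 ratio of 0.64 (0.51 to 0.78). *C2*, the classical pathway relative of *Cfb*, was at 1.10 and 1.93 CPM with a ratio of 0.81 (−0.35 to 2.07), whose interval includes 0. *C4b*, the substrate of the C1 complex, was lower at 4.72 and 2.51 CPM, with a ratio of −0.91 (−1.67 to −0.18), beside 4.43% of all genes. In monocytes 9 of the list had enough UMIs and 0 passed the fold in either direction, with a median log2 ratio of 0.13 against 0.04 for all genes.

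Outside macrophages the wider list marked other cells. *Cr2*, the complement receptor of B cells, was at 159 and 62.7 CPM in B cells, of which the Cre library held 35 against 569, and *Cd55*, which dissociates the convertases, at 246 and 204 CPM. *C4b* was highest in cluster 17, at 70.3 and 84.3 CPM. Genes of the list that also passed 50 CPM in some cell type included *Itgam*, *Itgax* and *Itgb2*, which encode the chains of complement receptors 3 and 4, with *Calr*, *Cr1l* and *Cd93*.

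The genes most like each member across clusters were found by Pearson correlation of log2(CPM + 1), over 17 clusters of the control and 18 of the Cre library and among 8511 genes. Clusters of a library share its free RNA and depth, so these values are descriptions. For the C1q sum the genes were the lysosomal *Ctsa* (r = 0.942 and 0.944) and *Ctsb* (0.954 and 0.942), then *Rab3il1* (0.941 and 0.940), *Ms4a7* (0.976 and 0.937) and *Cfb* (0.935 and 0.934). *Cfb* in turn was most like *Tmem119* (0.971 and 0.932), the 3 C1q genes and *Itga9*. *C3ar1* was most like *Slc7a2* (0.957 and 0.904), *C1qa*, *Trem2* (0.966 and 0.896), *Mertk* and *C1qc*. *C5ar1* was among the 5 genes nearest to *C3* (0.867 and 0.913), whereas *C3* was not among the 5 nearest to *C5ar1*. *C3* and *C5ar1* shared *Cd14* and *Atp6v0c* among their 5 nearest genes. *Slc11a1* (0.911 and 0.927) was nearest to *C3* and *Clec4d* (0.934 and 0.929) nearest to *C5ar1*. *Cfp* was most like *Sirpa* (0.921 and 0.927), *Wfdc17*, *Nfam1*, *Clec4n* and *Clec5a*.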

How the data were processed

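RNA of sorted cells from AT3 tumors was counted in 1 library per genotype, each from 10 pooled mice, with both suspensions loaded together. The authors deposited unnormalized UMI counts per gene and barcode, with 12 oligo rows not used here. Cell Ranger 6.1.2, mm10 and Seurat are named in the submitters' processing notes. Gene UMIs summed to 27245625 in the control and 28827045 in the Cre library. Columns of other samples numbered 0.

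Cells with 500 to 7500 genes and at most 15% mitochondrial UMIs, and genes in at least 3 cells, were clustered with Seurat 5.3.0 (2000 variable genes, of which the 20 complement genes among them were left out, 30 principal components, 20 neighbours, resolution 0.8). A cluster took the name of the best scoring fixed list with at least 3 markers found in 25% of its cells or more. It stayed unnamed where a different list had more of its markers among the 10 genes leading the cluster, or where its cells were shallow and led by none of that list. No doublet caller was used, and cells with T or B cell UMIs were left out as an alternative. Counts were summed per library and cell type and divided by all gene UMIs of the group (CPM). Exact intervals were computed with Python 3.11.15, numpy 2.4.6, scipy 1.17.1 and pandas 2.3.3, and figures were drawn with matplotlib 3.10.9. The code of the ratio intervals was run on simulated Poisson sums, the model that these intervals assume. That run cannot show how they behave where few cells hold many UMIs. Thinning drew 2000 UMIs per cell and left out shallower cells. There is 1 library per genotype, so no test was made.

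Named genes were the 8 members in each cell type and subcluster, the C1q sum, genes of the wider list that passed 1.5-fold in macrophages or monocytes or 50 CPM in a cell type with at least 20 UMIs, the 5 genes most correlated with each member (20 CPM in a cluster, clusters of 20 cells or more, ranked by the lower of both libraries), and *Pgd*. *Lyz2*, *Folr2* and other leading genes describe cells only. The members and lists were chosen with earlier results of these data known. Sequences and positions are from RefSeq for GRCm38.p6, the table holding promoters of 6 of the 8 members. Alternatives were another resolution, complement genes kept in clustering, other filters, scaling, thinning, equal subcluster weights, per-cell means and cells left out, and, added after the data were seen, another random start of the subclusters and values by subcluster and in Langerhans cells with cells left out. The values of 1 gene of the wider list are not reported here.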

Additional observations from a re-analysis of the deposited data

Results flagged for a closer look

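The C1q genes moved in opposite directions between genotypes in macrophages and monocytes, with intervals of counting error on opposite sides of 0. The log2 ratio of the Cre library over the control library was −0.29 in macrophages and 0.23 in monocytes for *C1qa*, −0.16 and 0.15 for *C1qb*, −0.30 and 0.24 for *C1qc*, and −0.25 and 0.20 for their sum. With 1 library per genotype the difference between the cell types was not tested.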

How the results depend on the processing

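No paired analysis was possible because each genotype has 1 library. In macrophages *C1qa*, *C1qb* and *C1qc* stayed below 0 under 10 of 10 alternatives. The log2 ratio ranged from −0.36 to −0.18 for *C1qa*, from −0.23 to −0.03 for *C1qb* and from −0.37 to −0.19 for *C1qc*. The log2 ratio of the C1q sum in macrophages (−0.25) was −0.18 at resolution 1.6, −0.13 without cells holding T or B cell UMIs, −0.22 with 1000 to 6000 genes and at most 10% mitochondrial UMIs, −0.31 when scaled by the median ratio (a shift of 0.06), −0.21 as a mean of per-cell CPM, −0.19 when thinned and −0.14 with subclusters weighted equally, from either random start. In monocytes (0.20) it was 1.36 at resolution 1.6, 0.14 with complement genes kept in the clustering, 0.31 without cells holding T or B cell UMIs and 0.39 without the 5 highest cells. Those 5 cells are a larger part of the 129 control than of the 328 Cre monocytes, so the 0.39 cannot test the ratio. At resolution 1.6 *C5ar1* in monocytes turned to −0.09. The monocyte class then held 25 and 51 cells, 24 and 45 of them in subcluster 8 (*Ace*, *Adgre4*), and 5 cells in each library carried all but 6 and 9 of its 25 and 120 C1q UMIs, so that the 1.36 rests on few cells (−0.45, with an interval of −2.11 to 1.32, without them). Members at least 1.5-fold higher in monocytes (2) were 4 at resolution 1.6 (*C1qa*, *C1qb*, *C1qc* and *Cfp*), 1 without cells holding T or B cell UMIs, 1 by per-cell means (*C5ar1*, 0.69, with *C3ar1* at 0.58), 0 at a fold of 2 and 0 with subclusters weighted equally, but 2 from another random start of the subclusters. Macrophages held 83.3% and 74.8% of C1q UMIs at resolution 1.6 and 93.7% and 86.2% with complement genes kept in the clustering. Apart from the effect of the smaller class at resolution 1.6, the cause was not tested. Groups under 60 cells, such as cluster 17, limit what depth can show.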
